A study of Mus musculus with 4 samples.

Results

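The proteasome genes of mouse primary spermatocytes were followed in RNA-seq libraries of circSRY KO and control mice. Members were all genes whose symbol is Psm, a letter from a to g and a number, and 48 of the 53700 genes in the deposited table matched. All 8-wk-old mice were C57BL/6, and the cells were sorted from testis suspensions by flow cytometry on Hoechst fluorescence, which reads DNA content. Each group had 2 mice. The control mice were wild type (replicates 2 and 3), and the circSRY KO mice (replicates 1 and 2) carry a CRISPR-Cas9 deletion, made in zygotes, of the splice acceptor that precedes the Sry reading frame, so that Sry is not made into a circular RNA. The expected count of Sry was 0 in each of the 4 libraries, which does not check the genotype because circular RNA has no poly(A) tail for the library kit to select.

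The proteasome degrades proteins that carry ubiquitin chains. Its core particle is a barrel of paired alpha rings (Psma genes) and beta rings (Psmb genes), in which some of the beta subunits cut the substrate. A regulatory cap opens the barrel and consists of a base with a ring of ATPases (Psmc genes) and a lid that removes ubiquitin (most Psmd genes). Alternative activators (Psme genes) can take the place of the cap. In testis a germline alpha subunit encoded by Psma8 takes the position of the one encoded by Psma7, giving the spermatoproteasome, which is needed for meiosis in male mice. Psme4 encodes an activator that acts on acetylated histones in spermatids. In immune cells and under interferon, Psmb8, Psmb9 and Psmb10 replace the cutting subunits Psmb5, Psmb6 and Psmb7.

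The libraries held 8045148 to 8839461 expected counts, and replicates of each group differed beyond sampling noise, the chi-square per gene being 11.2 for the controls and 35.7 for circSRY KO. The sorted cells carried spermatocyte transcripts, with 10088 and 11405 TPM (a level per transcript length, scaled to the same total in each library) summed over 8 markers of pachytene and diplotene spermatocytes in the controls, against 8736 and 9534 TPM under circSRY KO. Most of this sum was Ldhc (4921 and 5812 against 4581 and 4863 TPM) and Ybx3 (2160 and 2424 against 1876 and 1844 TPM). The 8 markers differed in direction, with 2 called higher (Pgk2 and Nme8), 5 not called and 1 lower, Piwil1. Piwil1 had 644 and 468 TPM in the controls against 17.2 and 31.1 TPM under circSRY KO. Hspa2, which was not called, had 1440 and 1424 against 685 and 770 TPM, and log2 fold changes were positive for 5 of the 8. Transcripts of other stages and cells also differed between the groups. The sum over 10 leptotene and zygotene markers was 736 to 1054 TPM in control and 196 to 263 TPM in circSRY KO, and 8 of the 10 were called lower. Over 8 elongating spermatid markers it was 7172 to 7699 TPM in control and 38015 to 48514 TPM in circSRY KO, and over 8 round spermatid markers 726 to 908 and 1716 to 2342 TPM. All 13 leukocyte markers were higher in circSRY KO, with a sum of 182 to 184 TPM in control and 842 to 962 TPM in circSRY KO. Most of the control sum was Aif1, and the other 12 summed to 28.3 and 23.8 TPM in the controls against 482 and 342 TPM under circSRY KO. Markers of 3 somatic cell types of the testis differed too: 7 of 7 Sertoli markers tested (64.6 to 91.8 against 197 to 437 TPM) and 8 of 8 stromal and myoid markers (52.9 to 77.3 against 304 to 382 TPM) were higher, and 6 of 6 Leydig markers (1590 to 1882 against 616 to 679 TPM) were lower. The 5 endothelial markers were not called (median log2 fold change 0.05). Of 6 spermatogonium markers, 2 were called higher and 4 were not called. In such bulk samples fewer cells of a type and less RNA per cell cannot be told apart. The part of these cells in the results below was not tested.

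A call needed both an adjusted p under 0.05 and a log2 fold change at or beyond 1 in either direction by the quasi-likelihood test of edgeR, adjusted by Benjamini-Hochberg over the 17766 genes tested. Of the 48 proteasome genes, 45 had enough counts to be tested. Psma6, Psmf1 and Psmd10 were called higher, Psma8, Psmg1 and Psmg3 were called lower, and 39 did not pass. Over all genes tested, 20.0% were called higher and 15.0% lower, so the 6.67% of proteasome genes called in each direction was below both shares. With the fold limit dropped, 3 members were higher and 6 lower, against 20.9% and 17.1% of all genes. The members added by this were Psmb5, Psmc4 and Psmd1. Negative log2 fold changes were found for 32 of the 45 members (71.1%) and for 47.6% of all genes, and the median was -0.21 for the members and 0.07 for all genes. With upper-quartile scaling, which moved the median of all genes to 0.28, 23 of the 45 members were negative and their median was -0.0033. Without circSRY KO replicate 2 the median of the members was 0.04 and 22 of 47 tested were negative, and without circSRY KO replicate 1 it was -0.55 and 37 of 45 were negative.

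**Figure D1:**
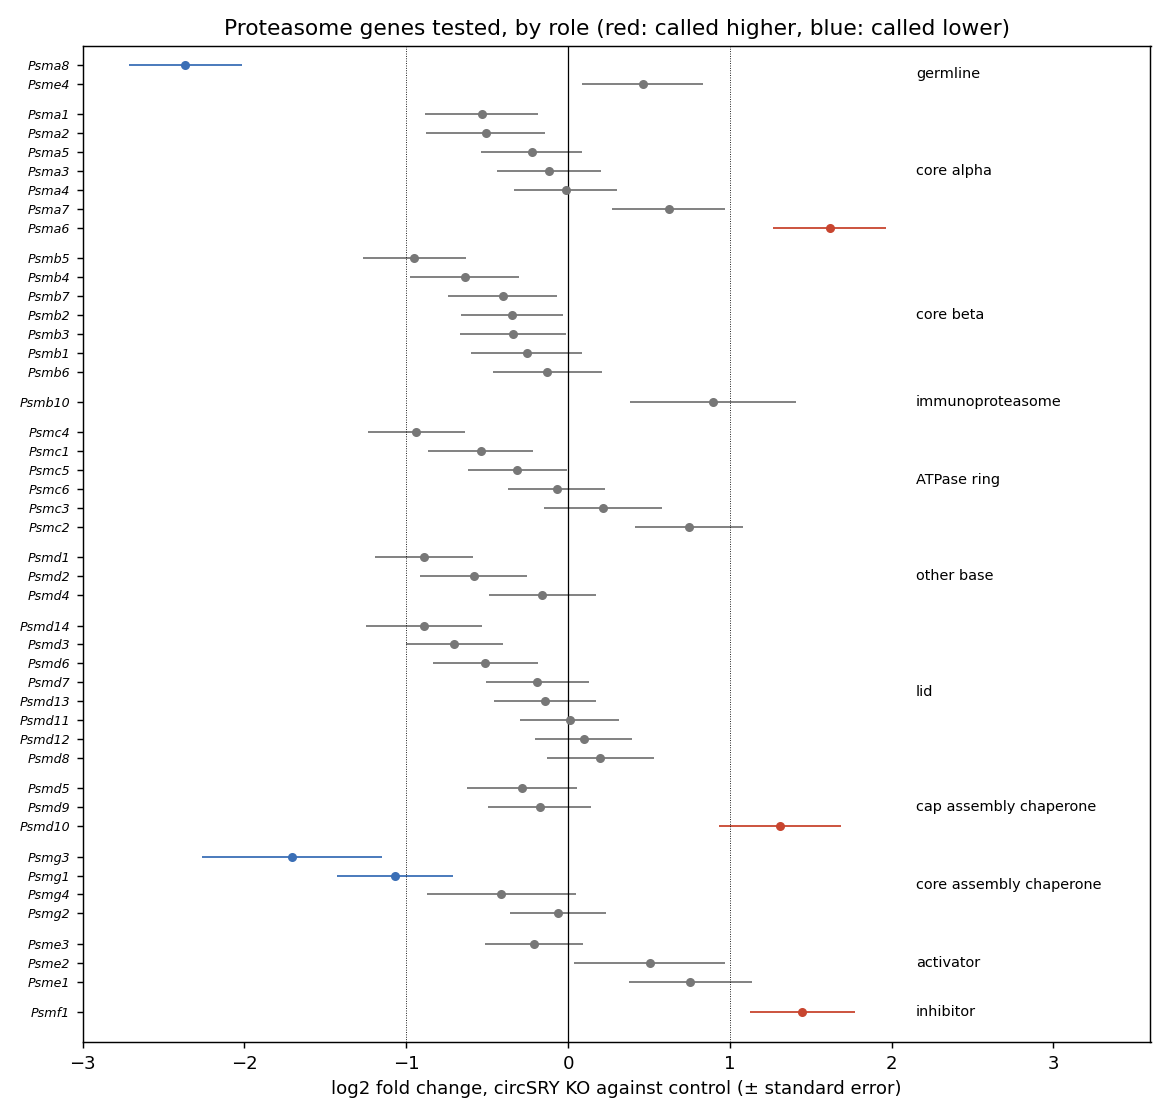
Difference between circSRY KO and control as log2 fold change (x axis) for the 45 proteasome genes tested, with standard errors as bars, grouped by role; dotted lines mark log2 fold change 1 in either direction. Points called higher are red and points called lower are blue. Psma8 has the lowest value (-2.37) and Psma6 the highest (1.62), and all 7 constitutive beta subunits lie below 0.

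Psma8, the germline alpha subunit, was lower in the circSRY KO libraries. It had 303 TPM (replicate 2) and 231 TPM (replicate 3) among the controls, against 47.4 TPM (replicate 1) and 35.8 TPM (replicate 2) under circSRY KO. Both circSRY KO libraries lay far below both control libraries. The expected counts were 2163 and 1732 in control and 510 and 286 in circSRY KO. The log2 fold change came to -2.37 ± 0.349 (standard error, edgeR adjusted p = 0.000248). The gene (ENSMUSG00000036743) lies on chromosome 18 of GRCm39 from 14839184 to 14904059 on the plus strand, and no annotated gene overlaps its exons. It was called lower under all 11 alternative settings, and with each library left out in turn its log2 fold change lay between -2.78 and -2.06. Among the 48 members it was sixth by mean TPM in control, and 31st in circSRY KO. In the same libraries 8 of the 10 leptotene and zygotene markers were called lower, and Spo11 and Mei4 were not. Of the 8 pachytene and diplotene markers, 2 were called higher, 1 was called lower and 5 were not called. Of the 8 round spermatid markers, 7 were called higher. The part of the mix of cells in the level of Psma8 was not tested.

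Psma7, the somatic counterpart of Psma8, did not pass the test. It had 30.4 and 32.0 TPM in the controls against 54.9 and 35.1 TPM under circSRY KO, log2 fold change 0.62 (edgeR adjusted p = 0.174). The circSRY KO libraries were above the control libraries, replicate 2 only slightly, and without circSRY KO replicate 2 the log2 fold change was 0.88 (edgeR adjusted p = 0.0159). Exons of Ss18l1 overlap those of Psma7 on the other strand, and the library kit does not mark strand. Of the transcripts of both genes, Psma8 made up 90.9% (replicate 2) and 87.8% (replicate 3) by TPM among the controls, against 46.3% (replicate 1) and 50.5% (replicate 2) under circSRY KO. The groups did not overlap in this share. The ratio of Psma8 to Psma7 was 9.96 and 7.20 in control and 0.864 and 1.02 in circSRY KO, or 9.02 times lower on average (geometric mean). An exact two-sided permutation test of this ratio gave p = 0.333, the smallest that 2 libraries against 2 allow.

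Psme4, the activator with a germline role, did not pass the test. It had 140 and 159 TPM in the controls against 115 and 253 TPM under circSRY KO, so that the circSRY KO libraries lay on both sides of control. Its log2 fold change was 0.46 ± 0.373 (standard error, edgeR adjusted p = 0.347). Without circSRY KO replicate 2 this was -0.021 (adjusted p = 0.968), and without circSRY KO replicate 1 it was 0.80 (adjusted p = 0.0449). As a share of the transcripts of all 4 Psme activators by TPM, Psme4 made up 52.6% and 63.8% in control and 41.6% and 57.6% in circSRY KO. An exact two-sided permutation test of the ratio of Psme4 to the other 3 gave p = 0.667.

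**Figure D2:**
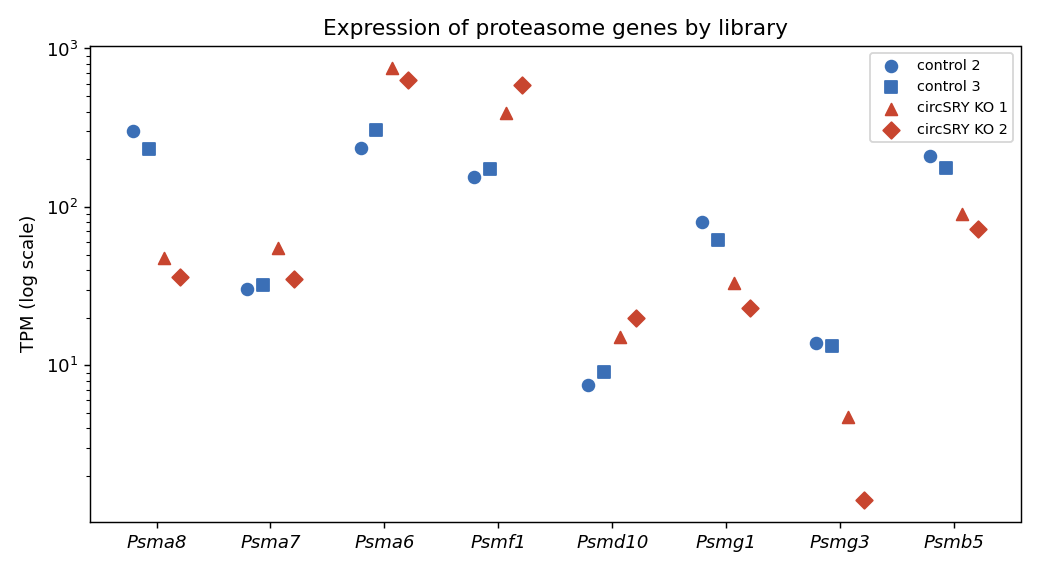
TPM (y axis, log scale) of 8 proteasome genes in each of the 4 libraries; blue points are control replicates 2 and 3 and red points are circSRY KO replicates 1 and 2. The smallest gap between the groups is that of Psma7, with 32.0 TPM in control replicate 3 and 35.1 TPM in circSRY KO replicate 2.

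Of the 7 constitutive alpha subunits, Psma6 was called higher and 6 did not pass. Psma6 (ENSMUSG00000021024, chromosome 12 of GRCm39, 55431007 to 55467094, plus strand) had 234 TPM (replicate 2) and 305 TPM (replicate 3) among the controls, against 758 TPM (replicate 1) and 631 TPM (replicate 2) under circSRY KO. Each circSRY KO library held more than 2 times the level of either control library. Its expected counts rose from 861 and 1177 to 4088 and 2505, log2 fold change 1.62 ± 0.348 (standard error, edgeR adjusted p = 0.00264). It was called under 10 of the 11 alternatives and not without control replicate 2 (1.39, adjusted p = 0.0970). The other 6 alpha subunits had log2 fold changes from -0.53 for Psma1 to 0.62 for Psma7. Their summed level was 587 and 544 TPM in the controls against 514 and 378 TPM under circSRY KO.

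Each alpha subunit fills its own position in the ring, and the transcripts were unequal already in control. Psma6 made up 20.8% and 28.2% of the summed TPM of Psma1 to Psma8 in control and 57.4% and 60.4% in circSRY KO. Psma8 made up 26.9% and 21.4% in control and 3.59% and 3.43% in circSRY KO. The share of Psma3 was 21.8% and 22.2% in control and 16.5% and 16.0% in circSRY KO. Psma2 had the lowest share in both circSRY KO libraries, at 2.00% and 1.13%, and 2.93% and 2.40% in control. The shares sum to the whole, so that a larger share of Psma6 lowers those of the other genes, and Psma3 itself did not pass the test (log2 fold change -0.12, edgeR adjusted p = 0.798).

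**Figure D3:**
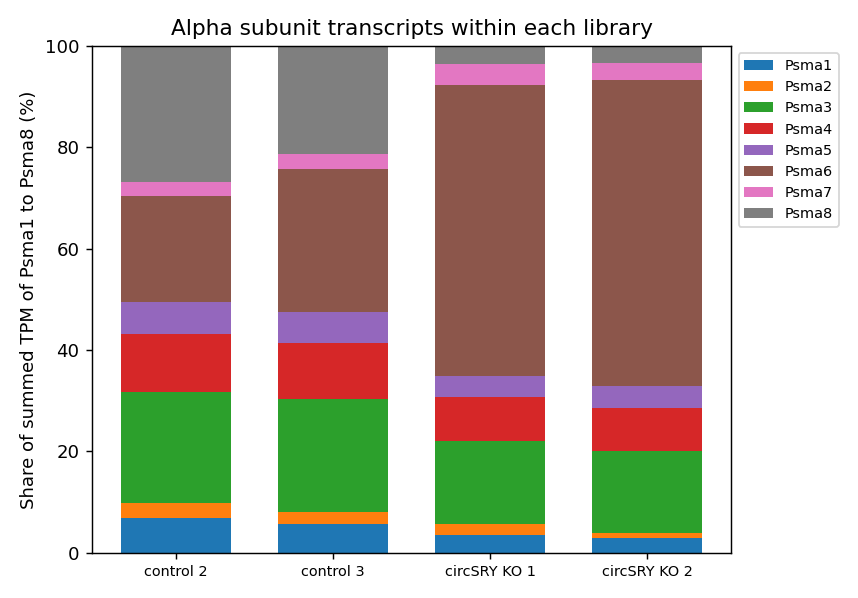
Share of each alpha subunit gene (y axis, percent) in the summed TPM of Psma1 to Psma8, 1 bar per library. Psma6 takes 20.8% and 28.2% in the control bars and 57.4% and 60.4% in the circSRY KO bars, and Psma8 goes from 26.9% and 21.4% to 3.59% and 3.43%.

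All 7 constitutive beta subunits had negative log2 fold changes, from -0.95 to -0.13, and 0 of 7 were called by edgeR. At an unadjusted p under 0.05 there was 1, Psmb5, and DESeq2 called 0 while limma on log2(TPM + 1) called Psmb5 lower. Psmb5, which carries the chymotrypsin-like activity, had 210 and 177 TPM in the controls against 89.8 and 72.5 TPM under circSRY KO. Both circSRY KO libraries lay well below both control libraries. Its log2 fold change was -0.95 ± 0.316 (standard error, edgeR adjusted p = 0.0283), just short of the fold limit. Its adjusted p was 0.274 without control replicate 2, 0.141 without control replicate 3 and 0.0788 with upper-quartile scaling, and without circSRY KO replicate 1 it was called lower (-1.30). Psmb4, a structural subunit, had 266 and 232 TPM in the controls against 169 and 119 TPM under circSRY KO (log2 fold change -0.64, edgeR adjusted p = 0.147). Without circSRY KO replicate 1 it was called lower (-1.15, adjusted p = 0.00103), and without circSRY KO replicate 2 its value was -0.28. Psmb6 and Psmb7, with caspase-like and trypsin-like activity, had log2 fold changes of -0.13 and -0.40 and did not pass. Psmb7 was at -0.90 (adjusted p = 0.0114) without circSRY KO replicate 1 and at -0.051 without circSRY KO replicate 2. With upper-quartile scaling and without circSRY KO replicate 2, the value of Psmb6 turned to 0.088 and 0.23. The summed TPM of the 7 genes was 1425 and 1311 in control and 999 and 706 in circSRY KO.

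By TPM, 29 of the 45 members tested had both circSRY KO libraries below both control libraries (64.4%, against 38.8% of all genes tested), and 8 had both above (17.8%, against 29.5%). TPM sum to the same total in each library. In circSRY KO the spermatid markers given above take a larger part of this total. The 9 mitochondrially encoded genes listed take a smaller part (control replicates 37826 and 21644, circSRY KO replicates 13574 and 20290 TPM). How far either shift accounts for the lower TPM of the members was not tested. Over all genes the median difference was -0.13 (log2) with limma on log2(TPM + 1), against 0.07 for the counts scaled by TMM (trimmed mean of M-values), on which the calls rest.

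The immunoproteasome subunits were near the detection limit. For Psmb8 the expected counts were 2 and 6 among controls against 22 and 6 under circSRY KO, and for Psmb9 they were 6 and 2 against 22 and 7. Both were too low to be tested. Psmb10 had counts of 29 and 22 in control and 75 and 26 in circSRY KO, with 7.53 and 7.15 TPM in the controls against 15.1 and 7.06 TPM under circSRY KO. For all 3 genes the count of circSRY KO replicate 1 was high and that of replicate 2 was close to control. Psmb10 had log2 fold change 0.90 ± 0.513 (standard error, edgeR adjusted p = 0.181), and without circSRY KO replicate 2 it was called higher (1.42, adjusted p = 0.00510), as were Psmb8 and Psmb9.

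Set against their constitutive counterparts by TPM, these subunits stayed a small part of the pool. Psmb8 made up 0.309% and 0.405% of the sum of Psmb8 and Psmb5 in control and 3.83% and 1.92% in circSRY KO. Psmb9 made up 0.385% and 0.343% of its sum with Psmb6 in control and 1.21% and 0.451% in circSRY KO. Psmb10 made up 2.84% and 2.83% of its sum with Psmb7 in control and 7.63% and 5.30% in circSRY KO. Each exact two-sided permutation test of a ratio gave p = 0.333, the smallest possible. In circSRY KO replicate 2 the TPM of Psmb9 (0.99, against 1.41 and 1.3 in the controls) and of Psmb10 were below control, and their shares were above it because Psmb6 (219 TPM, against 365 and 378) and Psmb7 (126 TPM, against 257 and 246) were lower still. The shares of Psmb8 and Psmb9 rest on the few counts given above, and exons of Tap1 overlap those of Psmb9 on the other strand. The thymus subunit Psmb11 had 2 and 0 counts in control and 0 and 1 in circSRY KO.

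Genes that work with the immunoproteasome in antigen presentation, or that respond to interferon, were called higher for 6 of 12 listed and lower for 0 of 12 by edgeR, against 20.0% and 15.0% of all genes tested. At an unadjusted p under 0.05 there was 1 lower gene, H2-K1. DESeq2 called 4 higher and 0 lower, and limma on log2(TPM + 1) called 1 higher and 0 lower. B2m, the light chain of MHC class I, had 35.8 and 21.1 TPM in the controls against 116 and 88.1 TPM under circSRY KO (log2 fold change 2.16). The others with the lowest adjusted p were Nlrc5, the transactivator of MHC class I genes, the interferon-induced GTPase gene Gbp2 and the trimming peptidase gene Erap1, with log2 fold changes of 2.35, 2.45 and 1.41. The TPM of Erap1 were 5.44 and 3.69 in control and 2.63 and 15.4 in circSRY KO, so circSRY KO replicate 1 lay below control by that measure. Tap1, whose product carries the cut peptides into the endoplasmic reticulum, had 1.41 and 1.08 TPM in the controls against 1.14 and 1.08 TPM under circSRY KO. The median log2 fold change of the list was 0.90, against 0.07 for all genes. The list was chosen with earlier results of these data known, so neither its share nor its median is a test against all genes. Cd74, a leukocyte marker that encodes the chaperone of MHC class II, had 9.54 and 8.47 TPM in the controls against 199 and 167 TPM under circSRY KO, and Ptprc, which marks leukocytes in general, had 0.35 and 0.16 TPM against 1.75 and 3.27 TPM. The part of leukocyte RNA in these values was not tested.

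Of the 17 genes of the regulatory cap, edgeR called 0. At an unadjusted p under 0.05, 4 were lower and 1 higher, and DESeq2 also called 0, while limma on log2(TPM + 1) called Psmc4, Psmd1 and Psmd14 lower. The log2 fold changes ran from -0.94 to 0.75, with 12 negative and a median of -0.19. In the ATPase ring, Psmc4 had 101 and 87.9 TPM in the controls against 43.8 and 43.9 TPM under circSRY KO, log2 fold change -0.94 ± 0.301 (standard error, edgeR adjusted p = 0.0240). Its circSRY KO libraries were alike and both below control, and its adjusted p was 0.260 without control replicate 2, 0.161 without control replicate 3 and 0.0701 with upper-quartile scaling. Without circSRY KO replicate 1 it was called lower (-1.10). Psmc2, another ATPase of the same ring, had a positive value that did not pass, with 240 and 288 TPM in the controls against 377 and 365 TPM under circSRY KO and log2 fold change 0.75 (adjusted p = 0.0893). Psmc3 was the most abundant member in both groups, with 679 and 843 TPM in the controls against 763 and 680 TPM under circSRY KO.

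In the rest of the base, Psmd1, a large scaffold subunit, had 72.5 and 58.7 TPM in the controls against 24.0 and 35.5 TPM under circSRY KO (log2 fold change -0.89, edgeR adjusted p = 0.0307). Its adjusted p was 0.323 without control replicate 2, 0.158 without control replicate 3 and 0.0838 with upper-quartile scaling, and without circSRY KO replicate 2 it was called lower (-1.01). Psmd2, the other scaffold subunit, had 382 and 364 TPM in the controls against 176 and 253 TPM under circSRY KO (log2 fold change -0.58, adjusted p = 0.177). Both genes were lower in TPM without overlap between the groups. Of the 8 lid genes, those with the lowest adjusted p were Psmd14 and Psmd3. Psmd14, the deubiquitinase of the lid, had 65.0 and 59.1 TPM in the controls against 33.4 and 18.1 TPM under circSRY KO (log2 fold change -0.89, adjusted p = 0.0615). Without circSRY KO replicate 1 it was called lower (-1.54, adjusted p = 1.68e-05), and without circSRY KO replicate 2 its value was -0.46. Psmd3 had 111 and 94.5 TPM in the controls against 49.98 and 56.4 TPM under circSRY KO (log2 fold change -0.70, adjusted p = 0.0756). The other 6 lid genes lay between -0.51 and 0.20.

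The genes that help to build the proteasome moved in both directions. Psmg1 to Psmg4 encode chaperones that pair up, Psmg1 with Psmg2 and Psmg3 with Psmg4, to assemble the alpha ring. Psmg1 (chromosome 16 of GRCm39, 95778481 to 95792202, minus strand) had 79.8 and 62.2 TPM in the controls against 33.2 and 23.0 TPM under circSRY KO, log2 fold change -1.07 ± 0.360 (standard error, edgeR adjusted p = 0.0297). Psmg3 (chromosome 5, 139809347 to 139812741, minus strand) had 13.7 and 13.3 TPM in the controls against 4.72 and 1.41 TPM under circSRY KO, with expected counts of 51 and 45 in control and 25 and 6 in circSRY KO. Its log2 fold change was -1.71 ± 0.558 (standard error, edgeR adjusted p = 0.0258). Both genes were below control in both circSRY KO libraries, but Psmg1 kept its call under 7 of 11 alternatives and Psmg3 under 9 of 11. Psmg1 was not called without control replicate 2, control replicate 3 or circSRY KO replicate 2 (adjusted p = 0.251, 0.0836 and 0.0628), nor with upper-quartile scaling (-0.85), and Psmg3 was not called without control replicate 2 or circSRY KO replicate 2 (adjusted p = 0.108 and 0.0697). The partners Psmg2 and Psmg4 had log2 fold changes of -0.06 and -0.41 and did not pass.

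Of the chaperones of the cap base, Psmd10, also known as gankyrin (chromosome X of GRCm39, 139847687 to 139857477, minus strand), was called higher. It had 7.55 and 9.06 TPM in the controls against 14.98 and 19.96 TPM under circSRY KO, and expected counts of 46 and 60 in control and 138 and 137 in circSRY KO. The log2 fold change came to 1.31 ± 0.377 (standard error, edgeR adjusted p = 0.0139). The call was lost without control replicate 2 or control replicate 3 (adjusted p = 0.242 and 0.0919), and with limma on log2(TPM + 1) (0.98, adjusted p = 0.0778). Psmd10 was the only member on the X chromosome, where 40.8% of the 674 genes tested were called higher. Psmd5 and Psmd9 had log2 fold changes of -0.28 and -0.17.

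Psmf1 (chromosome 2 of GRCm39, 151557732 to 151586119, minus strand), which encodes an inhibitor of the core particle in biochemical assays, was called higher. It had 155 and 173 TPM in the controls against 394 and 585 TPM under circSRY KO, so that each circSRY KO library was at more than 2 times either control library. The expected counts were 883 and 1099 in control and 2764 and 2873 in circSRY KO. Its log2 fold change was 1.45 ± 0.323 (standard error, edgeR adjusted p = 0.00333), and it was called under 10 of 11 alternatives and not without control replicate 2 (1.27, adjusted p = 0.131). By mean TPM it went from rank 14 of the 48 members in control to rank 3 in circSRY KO, behind Psmc3 and Psma6. The spermatid markers given above were higher in the same libraries, as were those of leukocytes, Sertoli cells, and stromal and myoid cells. Leydig markers and most leptotene and zygotene markers were lower. The part of these cells in the level of Psmf1 was not tested.

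The promoters of the 3 members that were called higher are shown because these are the genes with a raised level. RefSeq gives them on GRCm38.p6 as 250 bases before and 50 bases after each start, and Psma6 has an upstream and a downstream start. Capitals mark CCAAT on either strand (ATTGG on the other), the motif bound by NF-Y.

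Psma6, upstream start (chr12:55383972-55384271, plus strand): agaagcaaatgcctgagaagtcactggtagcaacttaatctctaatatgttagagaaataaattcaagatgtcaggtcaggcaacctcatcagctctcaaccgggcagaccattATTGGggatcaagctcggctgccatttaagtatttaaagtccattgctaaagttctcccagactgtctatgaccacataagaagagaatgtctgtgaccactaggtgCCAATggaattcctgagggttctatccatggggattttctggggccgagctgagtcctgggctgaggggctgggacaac
Psma6, downstream start (chr12:55398575-55398874, plus strand): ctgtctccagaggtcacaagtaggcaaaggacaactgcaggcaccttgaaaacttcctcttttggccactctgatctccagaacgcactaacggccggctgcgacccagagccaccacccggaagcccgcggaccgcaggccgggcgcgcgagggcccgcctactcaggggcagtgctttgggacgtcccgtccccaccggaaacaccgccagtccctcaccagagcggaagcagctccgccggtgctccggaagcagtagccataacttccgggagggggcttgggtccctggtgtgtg
Psmd10 (chrX:140956662-140956961, minus strand): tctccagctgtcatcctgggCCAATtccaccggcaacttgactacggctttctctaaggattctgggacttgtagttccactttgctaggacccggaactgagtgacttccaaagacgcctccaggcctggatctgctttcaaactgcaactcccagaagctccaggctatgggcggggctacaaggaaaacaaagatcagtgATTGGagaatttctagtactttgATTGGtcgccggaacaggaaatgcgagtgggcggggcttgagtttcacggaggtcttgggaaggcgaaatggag
Psmf1 (chr2:151741261-151741560, minus strand): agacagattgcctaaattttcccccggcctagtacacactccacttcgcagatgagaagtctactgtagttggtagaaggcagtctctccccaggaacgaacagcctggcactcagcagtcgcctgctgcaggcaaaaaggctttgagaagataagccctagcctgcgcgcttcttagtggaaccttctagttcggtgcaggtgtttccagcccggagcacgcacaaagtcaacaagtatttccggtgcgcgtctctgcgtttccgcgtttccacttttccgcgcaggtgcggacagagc

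The upstream Psma6 window held 2 CCAAT motifs, the Psmd10 window 3, and the downstream Psma6 and the Psmf1 window 0. Of 43 promoters of 40 members in the RefSeq table, 32.6% held CCAAT, against 37.4% of all 32851 promoters. Psma8 had no promoter in the RefSeq table, so none of the shares given here covers it. The antioxidant response element TGACNNNGC, through which Nfe2l1 raises proteasome genes when the proteasome is inhibited, was in 14% of the member promoters and 12.4% of all. The cAMP response element TGACGTCA was in 0 of 43 and in 1.79% of all. Both strands were searched, the windows shown held neither of the last motifs, and a base can belong to both of these since they share letters. None of the shares was tested.

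The activators other than Psme4 did not pass on counts. Psme1 and Psme2, which form the activator induced by interferon, had log2 fold changes of 0.76 and 0.50 (adjusted p = 0.128 and 0.416 from edgeR's quasi-likelihood test), and that of Psme2 turned to -0.13 without circSRY KO replicate 1. For Psme1 it was 1.00 (adjusted p = 0.0126) without circSRY KO replicate 2 and 0.44 without circSRY KO replicate 1. Exons of Emc9 and Rnf31 overlap those of Psme1 and Psme2 on the other strand. Psme3, a nuclear activator, had 981 and 761 expected counts in control and 792 and 777 in circSRY KO, log2 fold change -0.21 (adjusted p = 0.613). Its TPM were 89.8 and 65.7 in control and 117 and 154 in circSRY KO. The counts of the groups overlapped, while the TPM of both circSRY KO libraries were above control.

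The difference between both measures for Psme3 lies in the effective length. This is the transcript length less about a fragment length, averaged over the transcripts that RSEM assigned the reads to. It follows from the deposited counts and FPKM (fragments per kilobase of transcript, scaled to library depth). It was 2107 and 2042 bases in control and 875 and 888 bases in circSRY KO. The circSRY KO value was 0.425 times that of control, and 0.265% of the 7543 genes with at least 100 counts in every library had a ratio as low. The annotation holds 23 transcripts of Psme3, with full lengths from 524 to 4376 bases. With an offset for the effective length in edgeR's quasi-likelihood test, chosen after seeing the data, the log2 fold change of Psme3 was 0.99 (adjusted p = 0.0300), and it was 0.80 with limma on log2(TPM + 1) (adjusted p = 0.0573). The direction for Psme3 therefore depends on whether counts or length-scaled values are compared.

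Of 38 members with at least 100 counts in every library, 32 had an effective length in circSRY KO between 0.9 and 1.1 times that of control, as did 66.8% of all such genes. The 6 others were Psme3, the lid genes Psmd11 and Psmd12, Psmd9, Psmf1 and Psmc6. Psmd11 went from 1761 and 1654 bases to 1126 and 1263 bases, and Psmf1 from 1100 and 1119 bases to 909 and 862 bases. Psmc6 was the member that went up most, from 1191 and 1271 bases to 1766 and 1578 bases, a ratio of 1.36 that 1.33% of genes reached. The effective lengths of Psma8 and Psma6 stayed near those of control, at ratios of 1.03 and 1.00. These ratios were not tested.

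**Figure D4:**
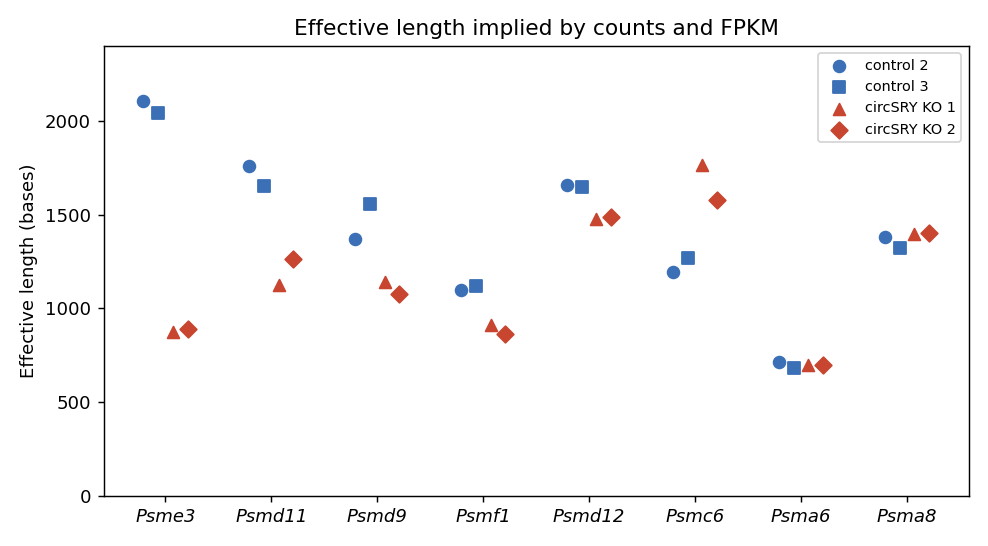
Effective length in bases (y axis) implied by the deposited counts and FPKM for the 6 members outside 0.9 to 1.1 times control and for Psma6 and Psma8, with 1 point per library (blue for control, red for circSRY KO). Psme3 goes from 2107 and 2042 to 875 and 888 bases, Psmc6 rises, and Psma6 and Psma8 stay level.

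Other genes of the ubiquitin-proteasome pathway were given by a list of 33, of which 32 were in the table and tested. With edgeR 3 were called higher, 3 lower (9.38% each, against 20.0% and 15.0% of all genes) and 26 did not pass, and the median log2 fold change was -0.02. Of those called higher, Ngly1, a deglycosylase, and Uchl1, a deubiquitinase of neurons and spermatogonia, had log2 fold changes of 1.12 and 1.02. Vcp, the unfoldase that extracts ubiquitinated proteins from complexes and membranes, had 305 and 251 TPM in the controls against 90.2 and 114 TPM under circSRY KO (log2 fold change -1.21, adjusted p = 0.00963). Ddi2, the protease that activates Nfe2l1, and Uba6, a ubiquitin-activating enzyme, had log2 fold changes of -1.44 and -1.38. Nfe2l1 itself had 35.8 and 34.9 TPM in the controls against 14.8 and 24.7 TPM under circSRY KO, which did not pass (log2 fold change -0.61, adjusted p = 0.123). Without control replicate 2, 1 gene of the list was called higher and 0 lower, and without control replicate 3, 1 higher and 2 lower.

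Pseudogenes with at least 95% identity over 200 bases were annotated for 10 members (Psma2, Psma3, Psma4, Psma5, Psmb3, Psmb5, Psmc1, Psmd2, Psmd11 and Psme1). The copies in the deposited table held 0 to 14 counts summed over the 4 libraries, against 389 to 18219 for the members. Psma8, Psma6, Psmf1, Psmd10, Psmg1 and Psmg3 had no such copy. Exons of annotated genes overlap those of Psma6, Psmd10 and Psmf1 on the other strand, and of Psmg3 on the same strand. The genes overlapping Psmd10, Psmf1 and Psmg3 held 0 to 54 summed counts. Those overlapping Psma6 were not in the deposited table, so their counts are not known.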

How the data were processed

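Polyadenylated RNA of 4 libraries was analysed, 2 per group. The authors used STAR 2.7.0f on GRCm39 and then RSEM 1.3.2, which gave the deposited expected counts (before normalization), the deposited TPM and the deposited FPKM. The submitters' processing notes also list mm9, and for the annotation no release is named in the sources used here. A second sheet with 4 columns of the same TPM, and the tables of the authors' own edgeR comparison (fold changes, p-values and FDR), were not used.

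After rounding, the expected counts went into edgeR 4.0.16 under R 4.3.3 (filterByExpr, minimum count 10, 17766 of 53700 genes kept, TMM, quasi-likelihood test, common dispersion 0.0685). The script was tested on simulated data. A standard error is the log2 fold change over the root of its F statistic. Ratios were compared by an exact permutation test. Alternatives used limma 3.58.1 and DESeq2 1.42.0. Positions, transcripts and overlaps are from GENCODE M39 on GRCm39, and promoters from RefSeq. The genes named were both germline forms, the immunoproteasome forms and their counterparts, all called members, the 2 of lowest adjusted p in a group with none, and up to 4 called genes per direction of each other list. Psma3, Psmc3, Psmc6, Psmd9, Psmd11, Psmd12, Tap1, Nfe2l1, H2-K1, Cd74, Ptprc, Aif1 and the spermatocyte markers were named after their values were seen. Members and lists were chosen with earlier results of these data known. A called gene of the wider list is not reported here.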

Additional observations from a re-analysis of the deposited data

How the results depend on the processing

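Of 242 comparisons of a named member's log2 fold change with its value under an alternative, 214 kept their direction and their call or lack of one, 11 lost a call, 11 gained one and 6 turned in direction. In 24 of the 214 the adjusted p crossed 0.05 with no change of call. The turns were in members that were not called: Psme4 to -0.021 and Psmb6 to 0.23 without circSRY KO replicate 2, Psme2 to -0.13 without circSRY KO replicate 1, Psmb6 to 0.088 with upper-quartile scaling, and Psme3 to 0.80 with limma on log2(TPM + 1) and to 0.99 with an offset for effective length (chosen after seeing the data). With each library left out in turn, Psme4 ranged from -0.021 to 0.80, Psme2 from -0.13 to 0.97 and Psmb6 from -0.64 to 0.23. The cause was not tested, apart from the effective length of Psme3 given above.

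With limma on log2(TPM + 1), 7 members were called lower and 12 were lower at an adjusted p under 0.05 at any fold, 1 gene of the wider ubiquitin-proteasome list was higher, and 2219 of all genes were higher. With upper-quartile scaling 2 members were lower at an adjusted p under 0.05 at any fold, and 6 genes of the wider list were higher. Of all calls, 57.1% were higher, which became 69.2% after upper-quartile scaling and 43.9% by limma.

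With each library left out in turn, 0 to 6 members were called higher and 1 to 9 lower, and 0 to 10 were higher and 1 to 16 lower at any fold. In the wider list 1 to 5 genes were higher and 0 to 6 lower, and over all genes 1232 to 4127 were higher and 952 to 3368 lower. The fewest calls over all genes were made without control replicate 2. The log2 difference of the TPM ratios ranged from -3.41 to -2.94 for Psma8 to Psma7, from -0.97 to -0.04 for Psme4 to the other activators, from 2.46 to 3.49 for Psmb8 to Psmb5, from 0.31 to 1.75 for Psmb9 to Psmb6 and from 0.94 to 1.5 for Psmb10 to Psmb7. A fit without 1 library assumes that the lone sample of a group varies like the other group. The likelihood ratio test, DESeq2, its size factors and no low-count filter left the 3 higher and 3 lower members unchanged. No paired analysis was possible because the labels give no pairing of control and circSRY KO mice. The low-count filter left Psmb8, Psmb9 and Psmb11 out of the main test.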

Other observations

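A few symbols begin like those of the proteasome genes but fell outside the rule. Psmc3ip, which is no proteasome subunit but a partner of the recombinases in meiotic strand exchange, had 242 and 242 TPM in the controls against 197 and 157 TPM under circSRY KO, log2 fold change -0.24 (edgeR adjusted p = 0.574). Psme3ip1, which encodes a nuclear protein that binds the product of Psme3, had 54.3 and 54.6 TPM in the controls against 38.9 and 45.6 TPM under circSRY KO, while its log2 fold change on counts was 0.11 (edgeR adjusted p = 0.805). Psme2b had 1 and 1 expected counts in control and 8 and 4 in circSRY KO and was too low to be tested. Psma5-ps had 1, 1, 3 and 0 counts in the same order, and the pseudogenes Psmb5-ps, Psmb6-ps, Psmb6-ps2 and Psmb7-ps2 had 0 counts in all 4 libraries.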
